A study of Mus musculus with 12 samples.

Results

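Mouse thymocytes were profiled for 9 transcription factors that act when a progenitor takes on the T cell fate: Tcf7, Lef1, Gata3, Bcl11b, Satb1, Tox, Myb, Ets1 and Ets2. The genes were taken by name, as factors known from thymocyte development. All 9 were present among the 24421 genes of the deposited table, and all 9 passed the filter on low values.

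Early thymic progenitors receive Notch signals, which induce TCF-1, the product of Tcf7, and GATA-3. These factors open T cell genes and help to induce Bcl11b, whose product closes off other fates before the T cell receptor beta chain is tested at the pre-TCR checkpoint (beta-selection). Cells that pass it become immature single-positive (ISP) cells, which carry CD8 without CD4 in the mouse, and then double-positive (DP) cells, in which LEF-1, c-MYB, SATB1, TOX and the ETS factors take part in survival, chromatin folding and receptor signalling.

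The 12 RNA-seq libraries came from C57BL/6 embryonic thymi labelled Rag1KO and Bcl6fl/fl, so every group, controls included, lacks Rag1 and carries the floxed Bcl6 alleles. KO libraries were LckCre+, in which the Lck promoter drives Cre in T lineage cells, and control libraries were LckCre-. Each genotype was sampled as unstimulated CD25+ cells, as CD4-CD8+ ISP cells and as CD4+CD8+ DP cells, with 2 libraries in each of the 6 groups. Most label fields give E16.5 (embryonic day) and the treatment protocol gives E17.5. The ISP and DP cells were sorted after 2 days of culture with 1 µg/ml anti-CD3, an antibody that stands in for the pre-TCR signal in Rag1-deficient cells. The CD25 cells were not stimulated, so stage and anti-CD3 culture cannot be told apart in comparisons with CD25. Nor can loss of Bcl6 be told apart from the presence of Cre.

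Labels disagreed for some libraries. Groups here follow the sample titles, but in 6 of the 8 anti-CD3 libraries the name of the sequencing library gives another population or genotype, and in 5 libraries the developmental stage field names another population. Cd4 matched the population titles, with 1.03 to 1.78 RPKM (read counts scaled for gene length and library depth) in CD25, 13.9 to 20.5 RPKM in ISP and 190.6 to 344.1 RPKM in DP libraries. Il2ra, which encodes CD25, stood at 537.6 to 603.3 RPKM in CD25 libraries and at no more than 44.7 RPKM elsewhere. No measurement here checks the genotype, since the Bcl6 value covers the whole gene. Bcl6 was higher in ISP KO libraries, at 18.9 and 25.1 RPKM, against 11.85 and 11.6 RPKM in ISP control libraries (limma difference 0.84, adjusted p = 0.0249). It was also higher in DP KO libraries, at 87.7 and 111.3 RPKM, against 72.5 and 69.95 RPKM in DP control libraries (limma difference 0.47, adjusted p = 0.0319). Rag1, too, was read at 32.04 to 136.2 RPKM, a whole-gene value that says nothing of the deleted part. The Y-linked gene Ddx3y did not exceed 0.0979 RPKM in KO libraries of the ISP and DP cells, against 7.28 to 56.3 RPKM in their controls. Xist, expressed from the inactive X chromosome, was at 0.766 RPKM in ISP control 2 and 0.914 RPKM in DP control 2, and at 20.5 to 25.6 RPKM in the other ISP and DP libraries. Ddx3y thus split fully by genotype in ISP and DP cells, so genotype there cannot be told apart from the sex of the embryos. Libraries held 9657633 to 14227980 recovered reads. Separate embryos or cultures are not stated for the paired libraries of a group, so p-values measure only the spread between these libraries.

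Tcf7, which encodes TCF-1, the high mobility group factor that starts the T cell program, was the most abundant of the 9 in both anti-CD3 populations (chromosome 11, 52252371 to 52283014, GRCm38). In CD25 cells it had 348.2 and 352.3 RPKM in KO libraries, against 322.4 and 328.2 RPKM in control libraries. ISP cells had 973.6 and 990.1 RPKM in KO libraries, against 1063 and 1087 RPKM in control libraries. DP cells had 1374.5 and 1214 RPKM in KO libraries, against 1571 and 1611 RPKM in control libraries. The 3 populations did not overlap, and KO libraries lay above controls in CD25 cells and below them in ISP and DP cells. Over both genotypes Tcf7 averaged 337.8 ± 14.7 RPKM in CD25, 1028 ± 55.0 RPKM in ISP and 1442 ± 184.0 RPKM in DP cells (SD, n = 4 libraries each). Its level in ISP was 3.04 times that in CD25, and its level in DP was 1.40 times that in ISP. Tcf7 rose at both steps (limma on log2(RPKM + 1), Benjamini-Hochberg adjusted p = 5.28e-11 and 9.54e-07).

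Lef1 encodes LEF-1, the close relative of TCF-1 that can share its work in thymocytes (chromosome 3, 131110471 to 131224356). CD25 cells had 334.9 and 342.2 RPKM in KO libraries, against 277.4 and 332.3 RPKM in control libraries. In ISP cells the values were 313.4 and 305.7 RPKM in KO libraries, against 336.6 and 288.2 RPKM in control libraries. In DP cells they were 215.7 and 217.5 RPKM in KO libraries, against 246.1 and 224.2 RPKM in control libraries. CD25 and ISP libraries overlapped, and every DP library was lower than every other. The means were 321.7 ± 29.8, 311.0 ± 20.1 and 225.9 ± 13.97 RPKM in CD25, ISP and DP cells. Lef1 differed by -0.05 on the log2 scale in ISP against CD25, which did not pass the test (limma, 95% interval -0.18 to 0.09, adjusted p = 0.54). It did pass under quantile normalization, at -0.22 (limma adjusted p = 0.0101), and when scaled to library totals, at -0.16 (0.0344), where the median of all genes was -0.096. It fell in DP cells to 0.726 times its ISP level (limma adjusted p = 3.43e-05).

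Gata3 encodes a zinc finger factor needed from the earliest T cell progenitors and later for the CD4 lineage (chromosome 2, 9857078 to 9890034). CD25 cells had 41.2 and 38.5 RPKM in KO libraries, against 29.4 and 35.5 RPKM in control libraries. ISP cells had 67.6 and 79.2 RPKM in KO libraries, against 56.2 and 61.9 RPKM in control libraries. DP cells had 48.2 and 53.8 RPKM in KO libraries, against 43.3 and 44.97 RPKM in control libraries. In each population both KO libraries lay above both controls, a pattern no other member had. None of these differences passed the test (limma adjusted p = 0.452 in CD25, 0.206 in ISP and 0.174 in DP cells). The share of all genes with this pattern was not counted. Gata3 peaked at the middle stage: the means were 36.2 ± 5.09 RPKM in CD25, 66.2 ± 9.82 RPKM in ISP and 47.6 ± 4.64 RPKM in DP cells. Its level rose 1.83-fold in ISP against CD25 and fell in DP to 0.718 times the ISP level (limma adjusted p = 6.47e-07 and 9.02e-05).

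Because Gata3 alone had KO values above controls at every stage, the 250 bases before one of its annotated starts are shown, from RefSeq (GRCm38.p6), on the minus strand at chr2:9878601-9878850. Capitals mark the single match to CCGGAA, an ETS type motif, which here reads on the other strand.
Gata3: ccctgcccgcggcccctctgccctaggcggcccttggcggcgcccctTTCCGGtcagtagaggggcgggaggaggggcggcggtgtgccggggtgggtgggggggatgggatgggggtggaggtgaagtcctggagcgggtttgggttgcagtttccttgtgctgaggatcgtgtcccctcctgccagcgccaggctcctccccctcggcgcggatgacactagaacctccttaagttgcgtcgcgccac
The window also lies within an exon of Gm13256, an antisense transcript in GENCODE M21, and whether the counting used strand is not given in the sources used here.

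Bcl11b encodes a zinc finger repressor and activator whose onset marks commitment to the T cell fate (chromosome 12, 107910403 to 108003602). CD25 cells had 94.4 and 89.2 RPKM in KO libraries, against 86.1 and 100.1 RPKM in control libraries. ISP cells had 104.7 and 91.2 RPKM in KO libraries, against 117.5 and 104.2 RPKM in control libraries. DP cells had 174.6 and 161.7 RPKM in KO libraries, against 193.8 and 186.7 RPKM in control libraries. CD25 and ISP libraries overlapped, and all DP libraries were higher. The means were 92.5 ± 6.14, 104.4 ± 10.8 and 179.2 ± 14.1 RPKM in CD25, ISP and DP cells. In DP cells Bcl11b rose to 1.72 times its ISP level (limma adjusted p = 3.34e-07). The smaller difference of ISP over CD25, 0.17 on the log2 scale, passed the test (limma adjusted p = 0.0335) but not in 4 of the 12 fits that left out a library (without CD25 control 1 0.135, CD25 KO 2 0.102, ISP control 1 0.132 and ISP KO 1 0.144). It was also lost without the filter on low values (limma adjusted p = 0.0726) and when libraries were scaled by quantiles or by totals (0.622 and 0.498).

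Satb1, an organiser of chromatin loops that is abundant in thymocytes, changed the most between stages on the log2 scale (chromosome 17, 51736187 to 51833290). CD25 cells had 41.7 and 46.6 RPKM in KO libraries, against 46.3 and 42.4 RPKM in control libraries. ISP cells had 247.1 and 249.95 RPKM in KO libraries, against 280.1 and 278.95 RPKM in control libraries. DP cells had 606.3 and 559.5 RPKM in KO libraries, against 668.1 and 724.5 RPKM in control libraries. The 3 populations did not overlap, and KO libraries lay below controls in ISP and DP cells but not in CD25 cells. The means were 44.2 ± 2.57, 264.0 ± 18.0 and 639.6 ± 72.0 RPKM in CD25, ISP and DP cells. Satb1 rose in ISP to 5.97 times its CD25 level and in DP to 2.42 times its ISP level, which is 14.5 times its CD25 level (limma adjusted p = 2.92e-12, 7.95e-10 and 4.43e-14).

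Satb1's outermost annotated window is shown because this gene had the largest stage difference of the 9 on the log2 scale. It lies on the minus strand at chr17:51833291-51833540 (RefSeq, GRCm38.p6), just before the start of the gene's minus-strand transcript, and holds no match to the motifs searched.
Satb1: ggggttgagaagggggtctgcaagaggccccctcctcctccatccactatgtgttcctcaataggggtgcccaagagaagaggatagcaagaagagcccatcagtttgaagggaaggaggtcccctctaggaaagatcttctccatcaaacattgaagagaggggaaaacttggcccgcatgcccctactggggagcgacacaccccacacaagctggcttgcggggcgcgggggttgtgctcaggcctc
All of it also lies within Gm6934, which GENCODE M21 lists as still to be tested by experiment.

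Tox, a high mobility group factor needed for the CD4 lineage after positive selection, had the lowest level of the 9 (chromosome 4, 6686353 to 6991557). CD25 cells had 10.5 and 10.3 RPKM in KO libraries, against 10.7 and 11.2 RPKM in control libraries. ISP cells had 33.2 and 29.9 RPKM in KO libraries, against 28.4 and 32.7 RPKM in control libraries. DP cells had 22.2 and 22.7 RPKM in KO libraries, against 27.3 and 28.6 RPKM in control libraries. The genotypes overlapped in ISP cells and stood apart in DP cells, where the KO libraries were the lower. The means were 10.7 ± 0.407, 31.05 ± 2.30 and 25.2 ± 3.24 RPKM in CD25, ISP and DP cells. Tox rose 2.91-fold in ISP against CD25 (limma adjusted p = 1.14e-09). In DP it fell to 0.813 times its ISP level (limma adjusted p = 0.000705), with libraries of the 2 populations overlapping. Scaled to library totals this difference was -0.12 on the log2 scale and did not pass (limma adjusted p = 0.0688), while the median of all genes was 0.16 under the same scaling.

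Myb encodes c-MYB, which supports progenitors and the survival of double-positive cells (chromosome 10, 21124935 to 21160984). CD25 cells had 198.3 and 189.8 RPKM in KO libraries, against 191.2 and 171.8 RPKM in control libraries. ISP cells had 123.6 and 125.2 RPKM in KO libraries, against 126.5 and 127.0 RPKM in control libraries. DP cells had 233.8 and 211.03 RPKM in KO libraries, against 292.8 and 307.1 RPKM in control libraries. Myb was the one member with its lowest level at the middle stage: 187.8 ± 11.3 RPKM in CD25, 125.6 ± 1.53 RPKM in ISP and 261.2 ± 46.1 RPKM in DP cells. It fell in ISP to 0.669 times its CD25 level, and in DP it rose to 2.08 times its ISP level (limma adjusted p = 5.73e-07 and 2.39e-09). The wide spread in DP cells is that between genotypes.

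The Myb window is shown because Myb had the largest genotype difference of the 9. It lies on the minus strand at chr10:21160985-21161234 (RefSeq, GRCm38.p6), overlaps no annotated exon, and holds no match to the motifs searched.
Myb: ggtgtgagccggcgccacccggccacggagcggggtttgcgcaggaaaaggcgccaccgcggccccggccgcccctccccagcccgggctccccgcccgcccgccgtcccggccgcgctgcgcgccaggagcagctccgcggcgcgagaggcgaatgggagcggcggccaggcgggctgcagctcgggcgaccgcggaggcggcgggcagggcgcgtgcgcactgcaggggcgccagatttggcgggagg
The RefSeq table held 15 windows of 250 bases for 7 of the 9 members. Each was searched on both strands for 5 motifs. TTCNNNGAA is of the BCL6 and STAT type. The TCF and LEF type was spelled ATCAAAG. For GATA factors the letters were AGATAA. The ETS type, CCGGAA, can share bases with the first. The RUNX type was TGTGGT. The ETS motif was found in 2 of the 15 windows, those of Gata3 and Tcf7, and the other motifs in 0 of the 15. Of 32851 windows of the same length, 7.02% held the BCL6 and STAT motif, 3.21% that of TCF and LEF, 9.99% that of GATA, 12% that of ETS and 14% that of RUNX factors. A match or its absence describes only these letters in these windows.

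Ets1 encodes an ETS factor that acts at beta-selection and in receptor signalling (chromosome 9, 32636221 to 32757820). CD25 cells had 131.7 and 131.6 RPKM in KO libraries, against 130.8 and 117.1 RPKM in control libraries. ISP cells had 216.04 and 236.7 RPKM in KO libraries, against 216.7 and 207.9 RPKM in control libraries. DP cells had 307.0 and 333.8 RPKM in KO libraries, against 334.2 and 347.4 RPKM in control libraries. Ets1 stood higher at each stage than at the one before, with no overlap between populations: 127.8 ± 7.15, 219.3 ± 12.3 and 330.6 ± 16.98 RPKM in CD25, ISP and DP cells. Its level rose 1.72-fold in ISP against CD25 and 1.51-fold in DP against ISP (limma adjusted p = 5.70e-08 and 4.13e-07).

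Ets2, its close relative and a target of Ras and MAP kinase signalling, rose mainly at the second step (chromosome 16, 95702075 to 95721051). CD25 cells had 70.96 and 80.2 RPKM in KO libraries, against 85.4 and 84.3 RPKM in control libraries. ISP cells had 87.97 and 88.4 RPKM in KO libraries, against 108.3 and 102.05 RPKM in control libraries. DP cells had 301.0 and 284.9 RPKM in KO libraries, against 360.4 and 363.5 RPKM in control libraries. In all 3 populations both KO libraries lay below both controls, and the share of all genes with this pattern was not counted. Of these differences only that in DP cells passed the test (limma adjusted p = 0.0069). The means were 80.2 ± 6.57, 96.7 ± 10.1 and 327.5 ± 40.4 RPKM in CD25, ISP and DP cells. Ets2 rose 1.21-fold in ISP against CD25 and 3.39-fold in DP against ISP (limma adjusted p = 0.000273 and 6.16e-11).

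**Figure D1:**
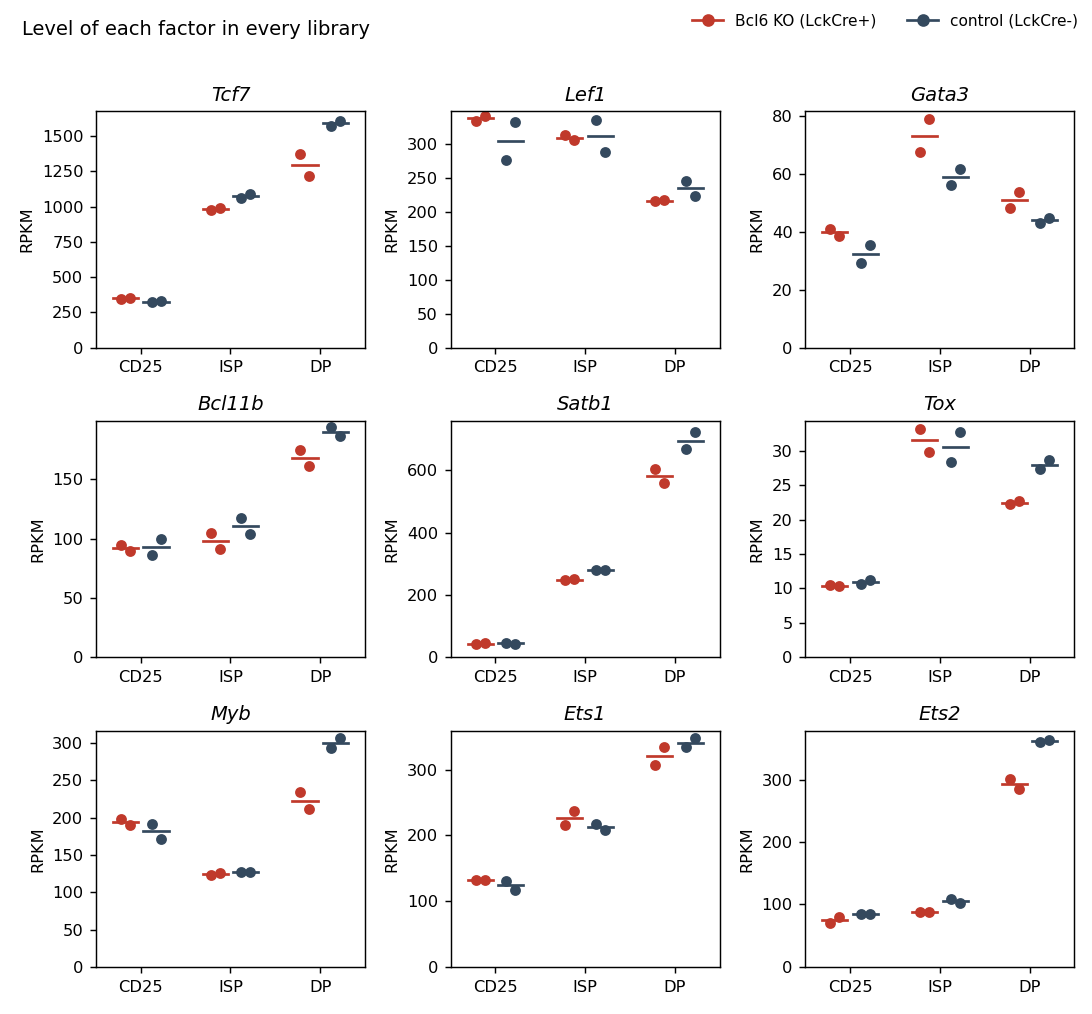
Level of each of the 9 factors in RPKM (linear axis) in the 12 libraries, by population and genotype. Each point is 1 library and each bar the mean of 2. Tcf7 spans the widest range, 322.4 to 1611 RPKM. In DP cells the KO points of Gata3 lie above the control points and those of every other factor below. Of those below, Myb, Tcf7, Ets2, Tox and Satb1 passed the test (limma adjusted p under 0.05). The share of all genes with such separation was not counted.

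The 9 factors took 4 courses over the 3 populations. Tcf7, Satb1, Ets1, Ets2 and Bcl11b were higher at both steps. The first step of Bcl11b was the least firm of these, being lost without the filter and under both other scalings, as given above. Gata3 and Tox rose and then fell, Myb fell and then rose, and Lef1 fell at the second step, with a fall at the first only under the other scalings given above. In ISP against CD25, 7 members rose and 1 fell, where 33.1% of all 11303 genes tested rose and 30.9% fell (limma, adjusted p under 0.05). The members' median difference was 0.77 on the log2 scale, against 0.01 over all genes. In DP against ISP, 6 rose and 3 fell, where 35.6% of genes rose and 35.0% fell. The median was 0.59 for the members and 0.01 over all genes. Across the whole transition, DP against CD25, 8 rose and Lef1 alone fell, where 37.3% of genes rose and 38.4% fell. Tcf7 was then 4.27, Ets2 4.08, Ets1 2.59, Tox 2.36, Bcl11b 1.94, Myb 1.39 and Gata3 1.32 times its CD25 level, and Lef1 0.702 times.

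Anti-CD3 cultures as a whole against unstimulated cells is a comparison that is the same by title and by library name. There 7 members rose and Lef1 fell, where 35.6% of genes rose and 36.5% fell. Myb, whose 2 steps run in opposite directions, differed by -0.06 on the log2 scale (limma, 95% interval -0.15 to 0.03, adjusted p = 0.221). The comparisons between populations share libraries, so their counts are not independent. In bulk RNA, fewer cells of a type and less RNA per cell cannot be told apart. Libraries of the populations also differed in markers of other cells: 8 NK and innate lymphoid genes summed to 591.0 to 779.8 RPKM in CD25, 1034 to 1252 RPKM in ISP and 112.1 to 217.1 RPKM in DP libraries, with none at 0 throughout. Of the 7 that could be tested, 6 rose and 1 fell in ISP against CD25, beside 33.1% and 30.9% of all genes. All 7 fell in DP against ISP, beside 35.0% of all genes. Their part in the members' levels was not tested.

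**Figure D2:**
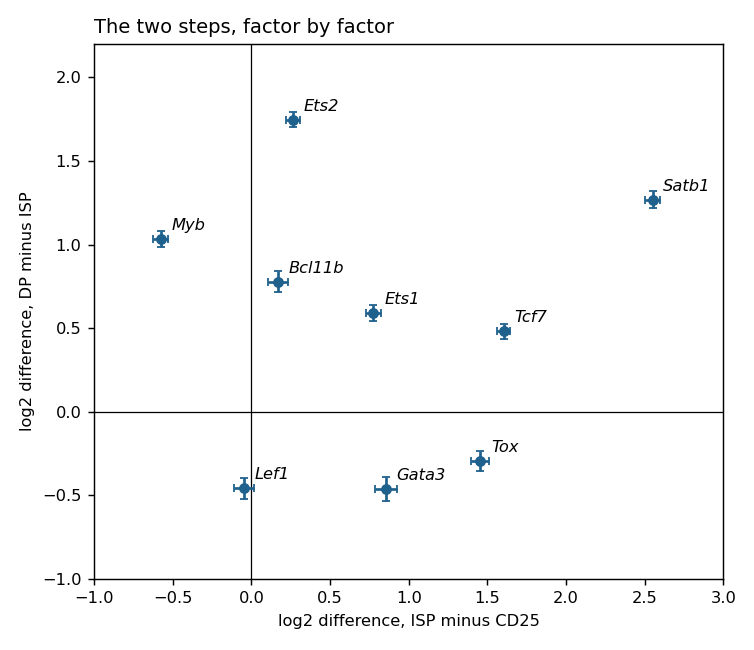
Difference of each factor at the first step (ISP minus CD25, horizontal axis) against the second (DP minus ISP, vertical axis). Both are on the log2(RPKM + 1) scale, and bars reach the standard error (SE) of the limma fit to each side. Satb1 lies farthest right at 2.55 and Ets2 highest at 1.75, while Gata3 and Tox lie to the lower right and Myb to the upper left.

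Related factors changed in balance. Within a library, Tcf7 was 1.055 ± 0.075 times Lef1 in CD25, 3.32 ± 0.307 times in ISP and 6.38 ± 0.654 times in DP cells (RPKM ratios, SD, n = 4 libraries each). The libraries ran from 0.988 to 1.16 in CD25, from 3.11 to 3.77 in ISP and from 5.58 to 7.18 in DP, with no overlap. Ets2 was 0.630 ± 0.076 times Ets1 in CD25, 0.443 ± 0.0622 times in ISP and 0.990 ± 0.0996 times in DP cells. So the ETS pair shifted first towards Ets1 and then towards equal levels. Each of the 6 differences between populations had p = 0.0286 by a two-sided exact permutation test, also after adjustment over the 6, the smallest that 4 against 4 libraries can give. Both pairs were formed with their values known. Ets2 over Ets1 was lower in KO libraries in every population, in DP cells at 0.981 and 0.853 against 1.08 and 1.05 in control libraries. With 2 against 2 libraries the exact permutation test cannot go below p = 0.333, so no test of this difference is given.

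**Figure D3:**
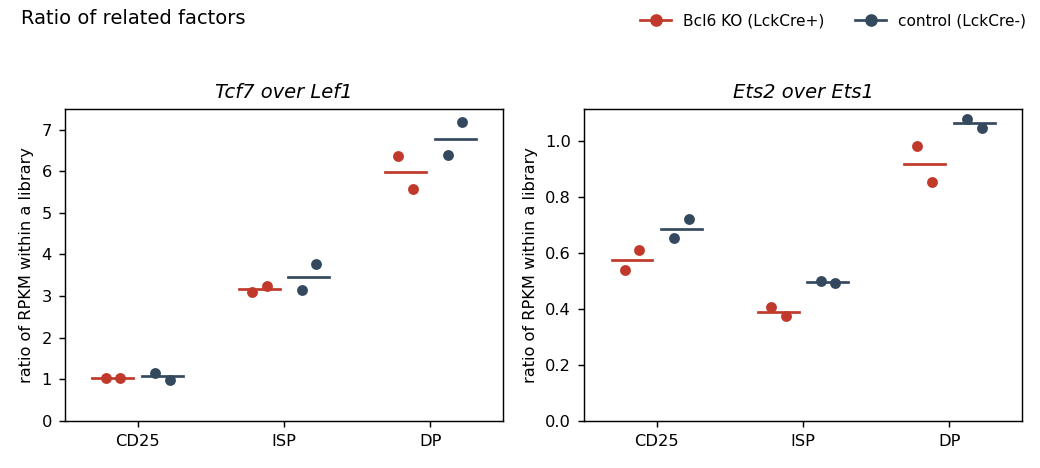
Ratio of Tcf7 to Lef1 (left) and of Ets2 to Ets1 (right) in each library, from RPKM values, by population and genotype; points are libraries and bars means of 2. Tcf7 over Lef1 averages 1.055 in CD25, 3.32 in ISP and 6.38 in DP cells, while Ets2 over Ets1 dips to 0.443 in ISP.

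In unstimulated CD25 cells, no factor passed the test in KO against control. Limma on the 4 CD25 libraries called 0 of 9, where it called 2 of 10636 genes, or 0.0188%; 1 member, Gata3, had an unadjusted p under 0.05, and voom on recovered reads called 0 with 2 such members. Gata3 differed by 0.30 on the log2 scale (limma, 95% interval 0.06 to 0.53, adjusted p = 0.452). Satb1 differed by -0.01, with an interval of -0.20 to 0.19, and Bcl11b by -0.02, with an interval of -0.21 to 0.18. The intervals of the 9 reached as low as -0.35 for Ets2 and as high as 0.53 for Gata3. Differences up to these limits were not excluded for those genes at this number of libraries.

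ISP cells gave the same count, 0 of 9 in KO against control, where 0.354% of 11303 genes were called. Here 3 members had an unadjusted limma p under 0.05, and voom on recovered reads called 0 with 5 such members. Ets2 came nearest, at -0.25 on the log2 scale (limma, 95% interval -0.39 to -0.11, adjusted p = 0.112). Gata3 differed by 0.31 (adjusted p = 0.206) and Satb1 by -0.17 (adjusted p = 0.333) in the same limma fit. Myb, at -0.03, and Lef1, at -0.01, lay nearest to 0.

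In DP cells, 5 of the 9 factors passed the test as lower in KO than in control: Myb, Tcf7, Ets2, Tox and Satb1. None passed as higher. Both KO libraries also lay below both controls for Bcl11b, Lef1 and Ets1, and above them for Gata3, without passing. Of 11303 genes, limma called 21.9% in this comparison, 7.78% as lower and 14.1% as higher. The members' median difference was -0.26 on the log2 scale and that of all genes 0.00.

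Myb averaged 222.4 ± 16.1 RPKM in DP KO and 299.97 ± 10.2 RPKM in DP control libraries (SD, n = 2 each), 25.9% lower. The difference was -0.43 ± 0.067 on the log2 scale (SE, limma adjusted p = 0.00154) and held in all 12 fits that left out a library. Tcf7 averaged 1294 ± 113.5 RPKM in DP KO and 1591 ± 28.4 RPKM in DP control libraries, 18.6% lower (limma difference -0.30, adjusted p = 0.00658). Ets2 was 19.1% lower, at 292.9 ± 11.4 RPKM in KO and 362.0 ± 2.17 RPKM in control libraries (limma difference -0.30, adjusted p = 0.0069). For Ets2 the groups stood well apart, while the KO libraries of Tcf7 also differed from each other, at 1374.5 and 1214 RPKM.

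Tox averaged 22.5 ± 0.344 RPKM in DP KO and 28.0 ± 0.921 RPKM in DP control libraries, 19.7% lower (limma difference -0.30, adjusted p = 0.0228). Satb1 averaged 582.9 ± 33.1 RPKM in DP KO and 696.3 ± 39.9 RPKM in DP control libraries, 16.3% lower (limma difference -0.26, adjusted p = 0.0243). These 2 calls were the least firm. The limma call of Tox was lost without any one of the 4 DP libraries (adjusted p = 0.0704 without DP control 1, 0.127 without DP control 2, 0.0685 without DP KO 1 and 0.0905 without DP KO 2). Satb1 lost its limma call without DP control 2 (adjusted p = 0.176) or DP KO 2 (0.172), and with no filter on low values (0.0551). Tcf7 lost its limma call without DP control 2 (adjusted p = 0.0568) and Ets2 without DP KO 2 (0.0609). Without DP control 2, or without DP KO 2, the count was 2 of 9, and DP control 2 is one of the libraries with low Xist.

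The other 4 factors did not pass in DP cells. Bcl11b differed by -0.18 on the log2 scale (95% interval -0.37 to 0.02, limma adjusted p = 0.18) and Lef1 by -0.12 (interval -0.31 to 0.08, adjusted p = 0.385). Ets1 differed by -0.09 (interval -0.24 to 0.06, limma adjusted p = 0.391). Gata3, the one positive value, differed by 0.20 (interval -0.02 to 0.42, limma adjusted p = 0.174). With quantile normalization Bcl11b (-0.37), Lef1 (-0.31) and Ets1 (-0.27) also fell in KO, which makes 8 of 9 lower. Scaled to library totals, Bcl11b fell in KO too, at -0.28 (limma adjusted p = 0.0444), which makes 6 of 9, while the median of all genes was -0.085.

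**Figure D4:**
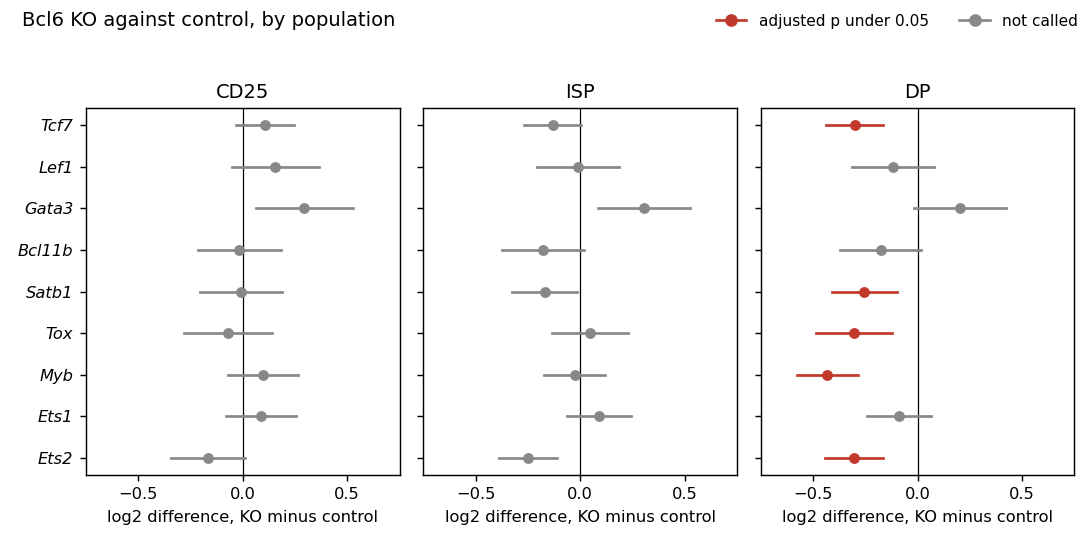
Difference between KO and control for each factor in CD25, ISP and DP cells, on the log2(RPKM + 1) scale, with 95% intervals from limma; red points passed an adjusted p of 0.05. Only the DP panel holds red points, from -0.43 for Myb to -0.26 for Satb1, and Gata3 is positive in all 3 panels.

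A call in DP and none in ISP does not show that the genotype difference changed between them, so the change was tested directly. Of 8 members whose KO difference was lower in DP than in ISP, Myb alone passed the test, at -0.40 on the log2 scale (SE 0.095, limma adjusted p = 0.0363), where 4.19% of genes were called and 0.522% were called lower. Put as a step, Myb in DP was 1.79 times its ISP level in KO cells and 2.37 times in control cells. Tox had 0.713 times its ISP level in KO and 0.916 times in control DP cells, a difference of -0.35 that did not pass (limma adjusted p = 0.112). Bcl11b took the same step in both genotypes, 1.72 times, with a limma difference of 0.00 and an interval of -0.28 to 0.28. The Myb call was lost in 9 of 12 fits that left out a library, with limma adjusted p up to 0.124, and without the filter on low values (0.0842).

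Against CD25 cells, the KO difference in DP was lower for Myb, by -0.53 (SE 0.095, limma adjusted p = 0.00671), and for Tcf7, by -0.41 (SE 0.088, limma adjusted p = 0.0138). In this comparison 12.3% of genes were called and 3.94% were called lower. For Tcf7, KO libraries were above controls in CD25 and below them in DP cells. The limma call of Tcf7 was lost without CD25 KO 2 (adjusted p = 0.051) or DP control 2 (0.0594) and without the filter (0.0533).

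Other transcripts moved with the genotype in DP cells and are given here as measured. The 10 myeloid markers summed to 53.3 to 80.9 RPKM in DP KO and 14.02 to 19.9 RPKM in DP control libraries, and Cd14 and Elane were at 0 in DP controls. In ISP cells the same sum was 46.1 to 60.4 RPKM in KO and 17.46 to 17.56 RPKM in control libraries, and in CD25 cells 40.8 to 40.9 RPKM in KO and 23.3 to 28.4 RPKM in control libraries. Of 7 myeloid markers tested in DP cells, 4 rose in KO (Lyz2, Fcgr3, Adgre1 and Csf1r), beside 14.1% of all genes. In ISP cells 1 of the 7 rose in KO, where 0.354% of all genes were called. The 8 NK genes summed to 177.2 to 217.1 RPKM in DP KO and 112.1 to 126.3 RPKM in DP control libraries. Of the 7 tested, 2 rose in KO (Gzma and Tyrobp), beside 14.1% of all genes. Gzma made up most of this sum, at 166.5 ± 29.1 RPKM in DP KO and 98.3 ± 7.20 RPKM in DP control libraries. Ncr1, Klrd1, Klrk1, Klrb1c and Il18r1 averaged below 1 RPKM in both genotypes, with the lower mean in KO, and the median difference of the 7 tested was -0.04 on the log2 scale. The 6 markers of double-positive cells summed to 3406 to 3784 RPKM in DP KO and 4244 to 4289 RPKM in DP control libraries. Of these, 3 fell in KO (Cd4, Themis and Arpp21), beside 7.78% of all genes. The 3 long nuclear RNAs summed to 136.8 to 224.9 RPKM in DP KO and 236.8 to 261.1 RPKM in DP control libraries. Among them 1, Neat1, fell, beside the same 7.78%. The part of these transcripts in the lower levels of Myb, Tcf7, Ets2, Tox and Satb1 was not tested. The Ddx3y values above also split fully by genotype in DP cells. The part of embryo sex could not be tested, since no DP library separates it from genotype.

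The 6 groups, of 2 libraries each, could be ranked by level for each factor. The share of all genes whose groups separate in this way was not counted. In CD25 cells the genotypes did not overlap for Tcf7, Lef1, Gata3, Tox, Ets1 and Ets2, though no member passed the test there. For Tcf7 no neighbouring groups overlapped, in the order DP control, DP KO, ISP control, ISP KO, CD25 KO and CD25 control. Ets2 likewise had no overlap from DP control down to CD25 KO, and Gata3 none from ISP KO down to CD25 control. Satb1 ran DP control, DP KO, ISP control and ISP KO, with the 2 CD25 groups overlapping. Myb had both DP groups above overlapping CD25 groups and both ISP groups lowest. For Ets1 the ISP groups overlapped, for Tox ISP KO, ISP control and DP control did so in turn, for Bcl11b the 2 ISP and 2 CD25 groups, and for Lef1 all groups other than the DP ones.

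Among themselves, Bcl11b and Ets1 had the most similar course over the 12 libraries, with a root mean square difference of 0.292 in centred log2(RPKM + 1), followed by Bcl11b and Myb at 0.337. Over 7810 genes with a mean of at least 5 RPKM, each member had closer companions. A search over so many more candidates makes this likely by itself, so it does not show that the members are unlike each other. Tcf7 was nearest to Ano6 (0.101), a phospholipid scramblase, and Vangl2 (0.121), a planar polarity gene. Lef1 was nearest to B3galnt2 (0.0947) and Ecd (0.0962), and Gata3 to Dnajc21 (0.111) and Itpripl1 (0.118). Bcl11b was nearest to Tpra1 (0.0809) and Maf1 (0.0855), and Ets1 to Ifngr2 (0.0784), a chain of the interferon gamma receptor, and Flna (0.0961). Tox was nearest to Icos (0.133), a costimulatory receptor, and Gimap7 (0.143). Satb1 was nearest to Sla (0.148), an adaptor that lowers receptor signalling, and Rmnd5a (0.202). Myb was nearest to Abcg3 (0.0912) and Pik3r1 (0.0927), a regulatory subunit of PI3 kinase, and Ets2 to Tecpr1 (0.139) and Capn3 (0.156). Likeness of course over these libraries is a description.

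Of 16 other regulators of the T lineage 15 were tested, and in DP cells 4 rose in KO and 1 fell, beside 14.1% and 7.78% of all genes. Myc, the growth regulator, averaged 38.5 ± 4.32 RPKM in DP KO and 19.8 ± 1.48 RPKM in DP control libraries (limma difference 0.92, adjusted p = 0.000103). Tcf12, which encodes the E protein HEB, averaged 91.1 ± 7.58 RPKM in DP KO and 113.4 ± 5.41 RPKM in DP control libraries (limma difference -0.31, adjusted p = 0.00938). Id3, an inhibitor of E proteins, stood at 154.8 ± 1.53 RPKM in DP KO and 193.6 ± 4.41 RPKM in DP control libraries and did not pass (limma adjusted p = 0.115). The other 3 that rose were Hes1, Runx1 and Cbfb, named here after their values were seen. The list's median was 0.07 on the log2 scale. At the first step 9 of the 15 rose and 6 fell, beside 33.1% and 30.9% of all genes, and at the second 6 rose and 7 fell, beside 35.6% and 35.0%.

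Of 15 cofactor and Wnt readout genes of TCF-1 and LEF-1 tested in DP cells, 1 was lower in KO and 0 higher, beside 7.78% and 14.1% of all genes. Ctnnbip1, which encodes an inhibitor of beta-catenin, fell in KO to 2.18 ± 0.633 RPKM, against 4.81 ± 0.343 RPKM in control libraries (limma adjusted p = 0.0094); it was named after its values were seen. Ctnnb1, the gene of beta-catenin, averaged 98.5 ± 5.35 RPKM in CD25, 93.7 ± 2.55 RPKM in ISP and 104.1 ± 1.96 RPKM in DP cells. Aes, a short Groucho family member, averaged 162.4 ± 9.51, 329.1 ± 15.8 and 448.0 ± 32.9 RPKM at the same 3 stages and rose at both steps (limma adjusted p = 3.91e-09 and 3.81e-06). Axin1 averaged 38.2 ± 3.38, 42.6 ± 1.35 and 42.8 ± 2.21 RPKM, and Tle3 26.1 ± 1.29, 21.7 ± 5.23 and 20.9 ± 1.87 RPKM. In all, 7 of the 15 rose and 4 fell in ISP against CD25, and 6 rose and 0 fell in DP against ISP, beside 33.1% and 30.9% of all genes at the first step and 35.6% and 35.0% at the second.

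Genes of the T cell receptor apparatus, which these factors are known to act on, were lower in KO DP cells in 5 of 15 cases and higher in 0, beside 7.78% and 14.1% of all genes. Among them were Cd28, Cd247, Themis and Cd6, named after their values were seen. The most abundant 4 of the list did not pass: Cd3g averaged 1295 ± 26.9 RPKM in DP KO and 1245 ± 27.6 RPKM in DP control libraries, Lck 1858 ± 32.4 RPKM in KO and 1829 ± 12.8 RPKM in control, Lat 1079 ± 24.8 RPKM in KO and 1165 ± 6.64 RPKM in control, and Cd3e 847.6 ± 63.4 RPKM in KO and 729.2 ± 54.9 RPKM in control libraries. The median was -0.07 on the log2 scale. In DP against ISP, 14 of the 15 rose and 0 fell, beside 35.6% and 35.0% of all genes, with a median of 0.59, against 0.01 over all genes.

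Genes of other lineages that are held down at commitment could be tested in 11 of 16 cases. In DP cells 2 rose in KO and 0 fell, beside 14.1% and 7.78% of all genes. They were the adaptor genes Tyrobp and Fcer1g, which are also NK and myeloid genes. Tyrobp averaged 15.5 ± 0.739 RPKM in DP KO and 5.72 ± 0.93 RPKM in DP control libraries (limma adjusted p = 0.00031), and Fcer1g 10.7 ± 3.13 RPKM in KO and 3.89 ± 1.45 RPKM in control libraries (0.0046). Id2, an inhibitor of E proteins used by innate lymphoid cells, averaged 55.9 ± 2.68 RPKM in DP KO and 51.1 ± 5.00 RPKM in DP control libraries and did not pass (limma adjusted p = 0.616). In ISP against CD25, 7 of the 11 rose and 3 fell, beside 33.1% and 30.9% of all genes, and in DP against ISP 1 rose and 9 fell, beside 35.6% and 35.0%. Klrd1, an NK receptor gene, averaged 1.34 ± 0.329, 22.1 ± 5.65 and 0.804 ± 0.488 RPKM in CD25, ISP and DP cells.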

How the data were processed

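RNA from sorted thymocytes was sequenced in 12 libraries, 2 in each of 6 groups. The authors deposited one table of values per gene and library, read here as RPKM: the values step by what 1 read is worth for each gene's length, and the table lies on a common median-of-ratios scale. Reads were aligned with BWA to GRCm38, per the submitters' processing notes; the sources used here do not name the counter, its annotation or any version. Whole reads were recovered from the steps (100% of 169595 values above 0 within 0.02 reads), 9657633 to 14227980 per library.

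Values were tested in R 4.3.3 by limma 3.58.1 (trend on mean level) after log2(RPKM + 1), a scale that understates changes of low genes; a gene entered if 2 or more libraries reached 1 RPKM. P-values were adjusted by Benjamini-Hochberg over all genes tested and called under 0.05. CD25 genotypes were compared within their 4 libraries (2 residual degrees of freedom) and all else in a fit of 12 libraries in 6 groups (6 residual degrees of freedom). The members and gene lists were chosen with earlier results of these data known. Named genes were the 9 members, the 2 genes nearest to each in course, up to 4 genes of highest level per list, and check genes; others are marked as chosen after their values were seen, and some list genes are not reported here by name. Same-numbered replicates were not treated as paired, since only 2 numbers exist and their deviations correlated by only -0.0658 to 0.125. Alternatives were another pseudocount (0.1), no filter, quantile and total-count scaling, voom on recovered reads, a replicate block, groups by library name, a fit of all 12 libraries for CD25, the ISP and DP libraries alone (added after seeing the data), and each library left out in turn. The procedures were tested on simulated data. Promoter windows came from RefSeq (GRCm38.p6) and gene positions from GENCODE M21. Of the gene names in the table, 27 look like dates. These rows were kept in the tests where they passed the filter, and were left out of the search for genes of similar course.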

Additional observations from a re-analysis of the deposited data

Results flagged for a closer look

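Myb had a genotype difference that differed between populations in the limma fit. It was -0.43 on the log2 scale in DP cells and -0.03 in ISP cells, and the difference between these, -0.40 (SE 0.095), passed the limma test across all genes (adjusted p = 0.0363). That call was lost in 9 of 12 fits that left out a library and without the filter on low values (limma adjusted p = 0.0842). Against CD25 cells, where Myb differed by 0.10, the difference was -0.53 (SE 0.095, limma adjusted p = 0.00671), and this call held in all 12 such fits. Both DP KO libraries were below both DP controls, at 233.8 and 211.03 RPKM against 292.8 and 307.1 RPKM.

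For Tcf7, too, the genotype difference differed between DP cells, at -0.30, and CD25 cells, at 0.11. The difference between these was -0.41 (SE 0.088, limma adjusted p = 0.0138), a call lost without CD25 KO 2 (0.051), without DP control 2 (0.0594) and without the filter (0.0533). Markers of myeloid and double-positive cells also differed by genotype in DP cells, and their part was not tested. Ddx3y split fully by genotype in DP cells, so for Myb and Tcf7 genotype there cannot be told apart from embryo sex.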

How the results depend on the processing

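Over the 81 differences of the 9 factors, a pseudocount of 0.1, voom on recovered reads and the fit with a replicate block each kept every direction and every call, and so did the 36 differences fitted on the ISP and DP libraries alone and the 9 CD25 differences from a fit of all 12 libraries. For all genes in the CD25 genotype comparison, 1 was called with a pseudocount of 0.1, 1 with no filter, 1 with quantile scaling, 14 with voom and 9 in the fit of all 12 libraries, against 2. In ISP cells 8 genes were called without the filter and 181 with voom, against 40. In DP cells quantile scaling called 8 members and total scaling 6, against 5.

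For the change of the genotype difference from ISP to DP, 185 genes were called without the filter, 304 with quantile and 295 with total scaling, against 474, and 0 members without the filter. From CD25 to DP, 860 genes and 1 member were called without the filter, against 1393 and 2, and 5 members with quantile and 5 with total scaling. Total scaling moved the median of all genes to 0.158 in DP against ISP and to -0.118 in the last comparison.

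Leaving out 1 library at a time gave 4 to 93 genes for KO against control in CD25 cells. The range was 6 to 56 for ISP cells and 844 to 2604 for DP cells, with 2 to 5 members in DP. The lowest DP counts came without DP KO 2 (844), DP control 1 (1102) and DP control 2 (1177), the highest CD25 counts without CD25 KO 2 (93) and CD25 KO 1 (59), and the lowest ISP count without ISP control 2 (6). The change from ISP to DP then had 64 to 1053 genes and 0 to 2 members, and that from CD25 to DP 617 to 1858 genes and 1 to 2 members.

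Signs turned where values lay near 0. Quantile scaling gave Lef1 0.0070 for KO against control in ISP and Bcl11b -0.21 for the change from ISP to DP. Total scaling gave Bcl11b 0.018 and Satb1 0.026 in CD25, Lef1 0.00060 in ISP and Bcl11b -0.11 for the change from ISP to DP. With a library left out, differences turned sign in ranges of -0.12 to 0.091 (Bcl11b) and -0.087 to 0.072 (Satb1) for KO in CD25, and -0.12 to 0.10 (Lef1) and -0.054 to 0.15 (Tox) for KO in ISP. Lef1 ranged from -0.11 to 0.019 for ISP against CD25. For the change from ISP to DP the ranges were -0.22 to 0.0040 (Lef1), -0.22 to 0.012 (Gata3) and -0.099 to 0.099 (Bcl11b), and from CD25 to DP -0.22 to 0.041 (Gata3).

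Grouping by library name in place of titles changed the results most. By library name, every anti-CD3 KO library is a DP library by title, and every anti-CD3 control library an ISP library by title. Libraries named DP are the first replicates by title, and those named ISP the second. With this grouping 5502 genes and 8 members were called for KO in ISP and 5622 genes and 8 members in DP. DP against ISP had 0 genes and 0 members called by limma, with 258 genes at an unadjusted p under 0.05. The change of the genotype difference had 0 genes (163 at an unadjusted p under 0.05) and 0 members from ISP to DP, and 3477 genes and 7 members from CD25 to DP. KO differences in ISP became 0.43 (Tcf7), -0.50 (Gata3), 0.83 (Bcl11b), -0.28 (Tox), 1.27 (Satb1), 1.01 (Myb) and 1.75 (Ets2). In DP they became 0.53 (Tcf7), -0.42 (Gata3), 0.72 (Bcl11b), 1.27 (Satb1), 1.06 (Myb), 0.56 (Ets1) and 1.745 (Ets2). DP against ISP gave 0.095 (Lef1), -0.0029 (Satb1) and -0.062 (Ets1), and DP against CD25 -0.051 (Myb). The change from ISP to DP gave 0.0998 (Tcf7), 0.077 (Gata3), -0.10 (Bcl11b), 0.0047 (Satb1) and 0.051 (Myb), and from CD25 to DP 0.42 (Tcf7), 0.74 (Bcl11b), 1.28 (Satb1), 0.96 (Myb), 0.48 (Ets1) and 1.91 (Ets2). In this grouping a KO difference compares DP with ISP libraries by title, the populations that Cd4 matched. Genotype by library name therefore cannot be told apart from population, and which genotype label is right was not tested. By title, the DP against ISP differences were 1.27 for Satb1 and 1.75 for Ets2.

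Correlations of same-numbered deviations ran from -0.0658 to 0.125, highest for ISP control with DP control, whose second libraries both had low Xist (0.766 and 0.914 RPKM). The fit with a replicate block changed the calls of 0 of the 9 members. The shallowest member, Tox, had 325 recovered reads in its lowest library.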

Other observations

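Of 25 close relatives of the 9 factors 22 were tested in the fit of all libraries, and in DP cells 2 rose in KO and 1 fell by limma, beside 14.1% and 7.78% of all genes, all 3 named here after their values were seen. Tcf7l2, a relative of Tcf7, averaged 4.13 ± 1.18 RPKM in DP KO and 0.965 ± 0.00794 RPKM in DP control libraries (limma adjusted p = 0.000509). Spi1, which encodes the myeloid and B cell ETS factor PU.1, averaged 1.07 ± 0.049 RPKM in DP KO and 0.286 ± 0.203 RPKM in DP control libraries (limma adjusted p = 0.00722). Elk1, another ETS gene, averaged 3.01 ± 0.138 RPKM in DP KO and 4.37 ± 0.312 RPKM in DP control libraries (limma adjusted p = 0.0451).

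Between stages, 6 of the 22 relatives rose and 10 fell in ISP against CD25, and 10 rose and 7 fell in DP against ISP. Over all genes the shares were 33.1% and 30.9% at the first step and 35.6% and 35.0% at the second. Spib, an ETS gene of early progenitors and B cells, averaged 58.97 ± 1.13 RPKM in CD25, 9.23 ± 1.18 RPKM in ISP and 16.2 ± 1.11 RPKM in DP cells. Elf1 averaged 43.2 ± 2.42, 50.4 ± 3.36 and 75.1 ± 4.90 RPKM at the same stages, Fli1 31.5 ± 2.94, 40.4 ± 2.35 and 47.1 ± 2.29 RPKM, and Tox4 37.6 ± 2.21, 35.05 ± 1.31 and 41.2 ± 2.16 RPKM.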
